A study of Mus musculus with 9 samples.

Results

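The transcriptome of the nucleus accumbens after a period of withdrawal from cocaine was compared with that at the end of the cocaine injections. Adult male C57BL/6 mice, 2 to 5 months old, received 1 intraperitoneal injection a day for 7 days. The cocaine group (10 or 20 mg/kg; the labels name both doses but assign neither to a sample) was harvested 24 h after the last injection, the withdrawal group had the same injections and then 8 days in the home cage, and a saline group (10 ml/kg, harvested at 24 h) is shown beside them. Each group is 1 poly(A) library from the pooled RNA of 8 mice, sequenced in 3 lanes. The withdrawal and cocaine libraries thus differ in the time since the last injection, and no group of mice was given saline and then kept for the withdrawal period, so the time itself and the absence of the drug cannot be told apart. The comparison covers 14051 of 21423 genes, those that reached an average of 1 RPKM over the 9 lanes; RPKM is reads per kilobase of gene model, scaled to the depth of the lane.

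The nucleus accumbens is the part of the ventral striatum in which dopamine from the midbrain meets glutamate from cortex, hippocampus, amygdala and thalamus. Most of its neurons are GABAergic medium spiny neurons, which carry either D1-type dopamine receptors with dynorphin and substance P, or D2-type receptors with enkephalin and the adenosine A2a receptor. Cocaine blocks dopamine reuptake, and its withdrawal is known for slow changes in glutamate transmission and drug seeking. The defining genes of medium spiny neurons were abundant in the cocaine and withdrawal libraries: Penk, the enkephalin precursor, had 775 ± 39 RPKM in cocaine and 840 ± 7.7 RPKM in withdrawal, and Ppp1r1b, which encodes DARPP-32, had 389 ± 15 and 498 ± 10 RPKM (SD over 3 lanes of 1 library).

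Library totals were 24219333 for cocaine and 19452882 for withdrawal, with lanes of 5546362 to 8935013, and the saline library had 26006605. Differences are given as withdrawal minus cocaine of log2(RPKM + 0.5), averaged over lanes, ± the standard error from the lanes. That error covers sequencing only: lanes are technical runs of 1 library, the difference has no replicate check, and no test of withdrawal is possible. Log2 values of single lanes correlated across genes at 0.979 to 0.982 within cocaine, 0.976 to 0.979 within withdrawal and 0.974 to 0.98 between them.

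A call required a difference of at least 1.5 times (0.585 on the log2 scale) and no overlap between the cocaine lanes and the withdrawal lanes. By this rule 143 genes were called, 1.02% of those compared, with 66 higher after withdrawal (0.47%) and 77 lower (0.548%). The libraries were close: in 90.03% of genes the higher value exceeded the lower by less than 25%, the median difference was -0.01, and the SD of all differences was 0.229. Another 171 genes were past 1.5 times but had overlapping lanes. Calls were concentrated at low levels, with 2.77% of 2775 genes under 3 RPKM called and 0.153% of 1964 genes between 30 and 100 RPKM. Above 100 RPKM 3 of 607 genes were called, all of them globins and all lower after withdrawal.

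**Figure D1:**
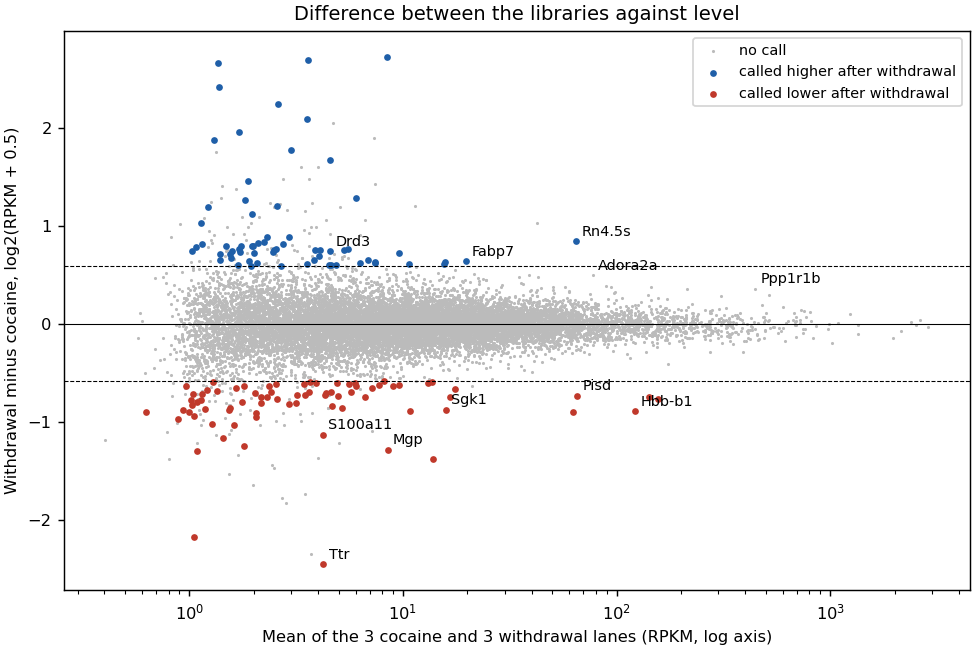
The difference between the libraries (vertical axis, withdrawal minus cocaine of log2(RPKM + 0.5)) against the mean of the 6 lanes (horizontal log axis, RPKM), 1 point per gene compared, with the 66 genes called higher in blue, the 77 called lower in red and dashed lines at 1.5 times. The spread narrows as the level rises; Adora2a and Ppp1r1b are labelled as genes without a call, and the red points right of 100 RPKM are globins.

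Globin genes were lower after withdrawal. Hbb-b1, an adult beta-globin, had 150, 155 and 173 RPKM in the cocaine lanes and 82.3, 90.7 and 84.2 RPKM in the withdrawal lanes (-0.89 ± 0.073). Hbb-b2, the other adult beta-globin, fell from 81.7 ± 3.1 to 43.6 ± 5.7 RPKM (-0.90 ± 0.11). Every withdrawal lane of both genes was below every cocaine lane, and also below every saline lane. The alpha-globins Hba-a1 (-0.74 ± 0.097) and Hba-a2 (-0.77 ± 0.092) fell as well. Summed over the 4 genes, globin RNA came to 627.1, 570.1 and 647 RPKM in the cocaine lanes, 334.6, 353.8 and 361.8 RPKM in the withdrawal lanes, and 443.4, 472.5 and 464.5 RPKM in the saline lanes. Cocaine was thus the highest library and withdrawal the lowest, with saline between them and no overlap.

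Alas2, which makes the first committed step of haem synthesis in red cell precursors, fell from 3.01 ± 0.66 to 1.63 ± 0.61 RPKM (-0.74 ± 0.3), but was not called without withdrawal replicate 3 (-0.50). In all, 5 of the 9 measured genes of the erythrocyte list were called lower, none was called higher and 4 had no call, with a median of -0.74. Among all genes compared 0.548% were called lower and 0.47% higher. Of the 9 genes 6 had a difference below 0 and 3 above 0, and 1 had lanes apart in the higher direction. The summed level of that list was 671.4 to 756 RPKM in cocaine lanes and 441.2 to 469.9 RPKM in withdrawal lanes. In pooled tissue, fewer cells of a type and less RNA per cell cannot be told apart, and the part of blood left in the tissue in these values was not tested.

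The alpha-globin copies are neighbours on chromosome 11 and share their upstream sequence, which is shown as a feature of the pair. The last 120 bases before each start, from RefSeq on GRCm38.p6, are at chr11:32283552-32283671 for Hba-a1 and chr11:32296372-32296491 for Hba-a2, both on the plus strand. Capitals mark the matches to CCAAT and ATATAA.
Hba-a1: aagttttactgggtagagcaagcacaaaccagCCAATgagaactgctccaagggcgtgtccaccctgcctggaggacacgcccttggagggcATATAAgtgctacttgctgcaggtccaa
Hba-a2: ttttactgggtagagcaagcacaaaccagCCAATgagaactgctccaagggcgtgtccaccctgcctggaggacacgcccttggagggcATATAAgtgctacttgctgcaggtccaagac
Within the 250 bases before the start, with the copies shifted by 3 bases, 247 of 247 bases were identical. These bases lie before the start and are not part of the RNA, so they do not show how reads divide between the copies. The transcripts were not compared here. Reads of near-identical transcripts can be split between copies in counting. The levels of Hba-a1 and Hba-a2 apart are therefore treated as uncertain and their sum as the firmer value.

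Promoters of the called genes were searched on both strands, over 250 bases before and 50 after the start, for a few short motifs; 34 of the 66 genes called higher, 48 of the 77 called lower and 10642 of the 14051 compared had a promoter in the RefSeq table. CCAAT stood in 44.1% of promoters of genes called higher, 56.2% of those called lower and 42.8% of all compared. TATAAA stood in 11.8%, 16.7% and 8.63%, the AP-1 site TGACTCA in 8.82%, 8.33% and 4.22%, and the cAMP response element TGACGTCA in 2.94%, 0% and 3.55%. ATATAA, which overlaps TATAAA in some promoters, stood in 11.8%, 8.33% and 5.37%. Each of these shares rests on at most 27 called genes. Among all 32851 promoters of that table, with several for some genes, the shares were 37.4% for CCAAT, 13.6% for TATAAA, 5.2% for TGACTCA, 1.79% for TGACGTCA and 9.82% for ATATAA.

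The largest fall among the named genes was that of Ttr, transthyretin, a carrier of thyroxine and retinol that the choroid plexus makes in large amounts. Ttr had 5.26, 10 and 7.24 RPKM in the cocaine lanes and 1.33, 0.617 and 0.901 RPKM in the withdrawal lanes (-2.45 ± 0.32), against 2.93, 1.29 and 2.9 RPKM in saline. No lanes overlapped between any pair of the libraries except that the lowest saline lane fell just below the highest withdrawal lane. About 220 reads stood behind the cocaine value and 22 behind that of withdrawal. Of 11 measured genes of the choroid plexus and ependymal list, Ttr was the 1 call, and the median of the list was -0.13 with 9 of 11 below 0. Folr1, a folate receptor of the choroid plexus whose mean over the 9 lanes was below 1 RPKM, had 0.805 RPKM in cocaine and 0.0523 RPKM in withdrawal, while Kl and Kcne2 had 0.89 and 0.348 RPKM in cocaine and 0.981 and 0.663 RPKM in withdrawal. The summed level of the list was 93.22 to 101.8 RPKM in cocaine and 78.49 to 84.53 RPKM in withdrawal. In all lanes of at least 1 of these libraries 3 of its genes were at 0: Cldn2 in both, Slc4a5 and 2900040C04Rik in withdrawal but not in cocaine. How far choroid plexus in the dissection enters the value of Ttr was not tested.

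Mgp, matrix Gla protein, an inhibitor of calcification made by vascular and fibroblast cells, fell from 12.0 ± 3.2 to 4.97 ± 2.8 RPKM (-1.28 ± 0.47). Its lanes were uneven, with 8.84, 15.2 and 12 RPKM in cocaine and 8.13, 4.02 and 2.76 RPKM in withdrawal, so that the libraries met within 1 RPKM. The rest of the meningeal and fibroblast list had no call and no common direction. Of its 17 measured genes 16 had no call, 10 lay above 0 and 7, Mgp included, below, and the median was 0.20. Foxd1, below 0 like Mgp, was at 1.81 ± 0.70 RPKM in cocaine and 1.18 ± 0.57 RPKM in withdrawal (-0.48 ± 0.39), with lanes that overlapped. Lamb1, a laminin subunit of basement membranes, was at 3.34 ± 0.082 RPKM in cocaine and 4.65 ± 0.29 RPKM in withdrawal (0.42 ± 0.05), and Col4a1, a collagen of the same membranes, at 5.23 ± 0.55 and 6.96 ± 0.36 RPKM (0.38 ± 0.092). S100a11, a calcium-binding protein, fell from 5.17, 5.32 and 7.43 RPKM to 3.17, 2.35 and 1.88 RPKM (-1.13 ± 0.24), on about 75 and 24 reads.

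Sgk1, a serum- and glucocorticoid-induced kinase, fell on a large number of reads, about 2397 and 1033. It had 21.4, 20.4 and 20.3 RPKM in the cocaine lanes and 11, 13.1 and 9.29 RPKM in the withdrawal lanes (-0.88 ± 0.14), with 18.6, 16.4 and 17.6 RPKM in saline. The withdrawal lanes lay below those of both other libraries. Plin4, a lipid droplet protein that is also induced by glucocorticoids, fell from 5.85 ± 1.1 to 3.41 ± 0.42 RPKM (-0.69 ± 0.16), a call that ended without cocaine replicate 3 (-0.56). Of the 22 measured glucocorticoid-responsive genes these were the 2 called, both lower, where 0.548% of all genes compared were called lower. In this list 16 had a difference below 0 (52.1% of all genes compared did) and 6 above 0, the highest at 0.15 (median -0.13). Lanes did not overlap for 9 members in the lower direction and 0 in the higher; among all genes compared those shares were 9.42% and 8.66%. Tsc22d3, which encodes the glucocorticoid-induced leucine zipper, was at 55.3 ± 8.7 RPKM in cocaine and 43.1 ± 3.3 RPKM in withdrawal (-0.35 ± 0.14), and Ddit4, an inhibitor of mTOR signalling, at 22.3 ± 1.7 and 17.9 ± 0.58 RPKM (-0.31 ± 0.069). With differences centred within bins of GC content, the median of the list was -0.16 and both calls were kept.

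Chaperone genes, which fold proteins in the cytosol, endoplasmic reticulum and mitochondria, were slightly below 0 nearly throughout. None of the 42 measured was called, 36 had a difference below 0 (52.1% of all genes compared did) and the median was -0.11. Lanes did not overlap for 15 of them in the lower direction and 1 in the higher, against 9.42% and 8.66% of all genes. Hspe1, the mitochondrial co-chaperonin, was at 42.3, 41.5 and 44.9 RPKM in cocaine and 32.1, 26.7 and 33.8 RPKM in withdrawal (-0.48 ± 0.11). Pdia4, a disulfide isomerase of the endoplasmic reticulum, was at 18.7 ± 1.8 and 14.9 ± 1.4 RPKM (-0.32 ± 0.11). Centring by GC content brought the median to -0.08, with 32 below 0.

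The remaining genes among the 12 largest falls at 3 RPKM or more were Ndufaf1, Ptpla, Nme5 and Pisd. Ndufaf1, an assembly factor of respiratory complex I, fell from 14.1 ± 3.2 to 7.39 ± 1.6 RPKM (-0.89 ± 0.25), while nuclear-encoded oxidative phosphorylation genes as a list had no call among 76 and a median of -0.01. Ptpla, an enzyme of very long chain fatty acid elongation now called Hacd1, fell from 6.10 ± 1.8 to 3.21 ± 1 RPKM (-0.84 ± 0.32). Nme5, a gene of the nucleoside diphosphate kinase family found in cilia, fell from 8.60 ± 4.1 to 4.66 ± 0.95 RPKM (-0.74 ± 0.39). That value rested on cocaine replicate 2, at 13.3 RPKM, and was -0.39 without it; the call also ended under centring by length (-0.71) and by GC content (-0.71), where lanes overlapped. Pisd, a phosphatidylserine decarboxylase of mitochondria, fell from 82.0 ± 5.4 to 49.1 ± 4.4 RPKM (-0.73 ± 0.091), with a saline level of 79.8 RPKM. Near-identical copies of Pisd exist in the mouse genome, so its level is uncertain.

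**Figure D2:**
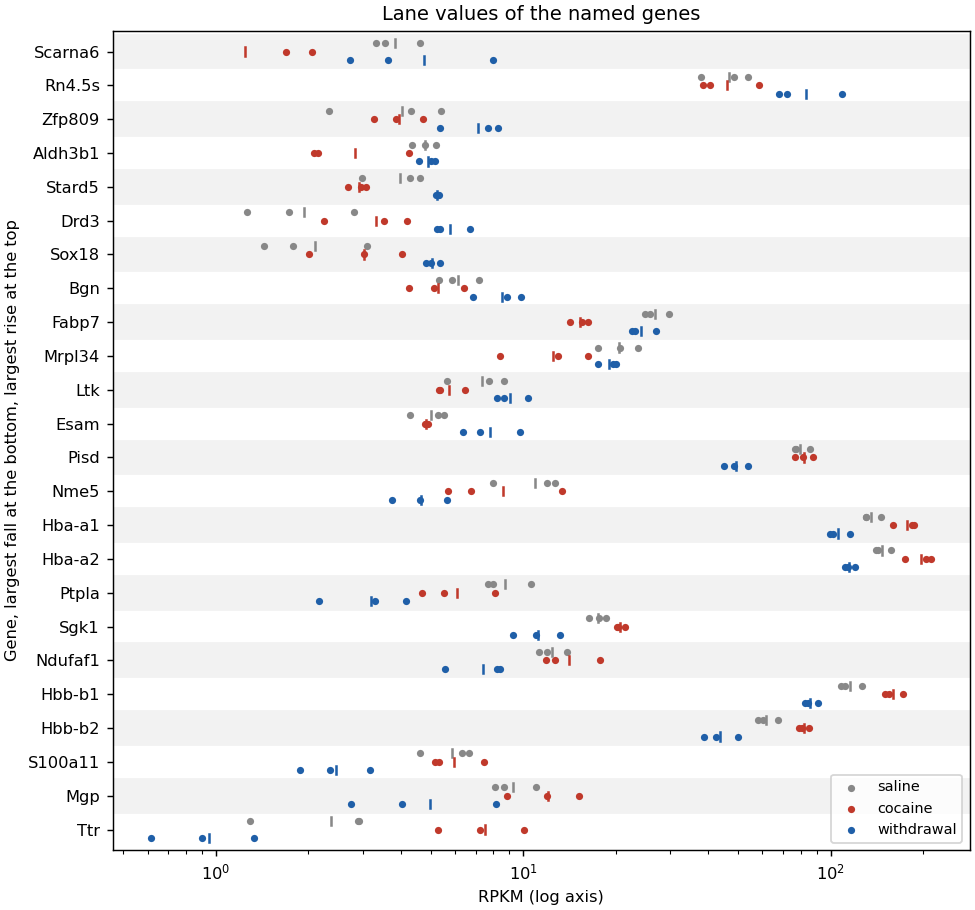
RPKM (horizontal log axis) in each of the 3 lanes of the saline (grey), cocaine (red) and withdrawal (blue) libraries for the 12 largest called changes in each direction, 1 row per gene ordered by the difference, with a tick at each library's mean; the cocaine lane of Scarna6 at 0 cannot be drawn on this axis. Red and blue lanes are apart in every row because that was a condition of the call; the grey saline lanes lie between them for the globins, near cocaine for Sgk1, Pisd and Esam, and near withdrawal for Aldh3b1 and Fabp7.

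Among genes that were higher after withdrawal, Drd3 belongs to the dopamine system itself. It encodes the D3 receptor, a D2-type receptor enriched in the ventral striatum. Drd3 had 2.25, 4.2 and 3.52 RPKM in the cocaine lanes and 5.37, 6.71 and 5.24 RPKM in the withdrawal lanes (0.74 ± 0.25), against 2.81, 1.73 and 1.26 RPKM in saline. All withdrawal lanes were above all lanes of the other libraries, and saline and cocaine lanes overlapped. About 116 and 163 reads stood behind the cocaine and withdrawal values, and without cocaine replicate 1 the difference was 0.52, under the limit of a call.

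Genes of dopamine and cAMP signalling in medium spiny neurons were mostly higher after withdrawal by small amounts. Of 39 measured, Drd3 alone was called, 31 had a difference above 0 (47.9% of all genes compared did) and the median was 0.15. Lanes did not overlap for 24 of them in the higher direction and 4 in the lower, against 8.66% and 9.42% of all genes. Adora2a, the adenosine A2a receptor of D2-type neurons, had 64.1, 64 and 64.4 RPKM in the cocaine lanes and 93.3, 89.5 and 89.2 RPKM in the withdrawal lanes (0.50 ± 0.021), with a saline mean of 91.4 RPKM. Rgs9, which speeds the shutdown of G-protein signalling downstream of dopamine receptors, was at 18.9 ± 0.36 and 26.2 ± 0.48 RPKM (0.46 ± 0.022). Both gaps were far wider than the spread of the lanes yet short of 1.5 times.

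Drd2 had 25.8, 32.4 and 33.5 RPKM in cocaine and 36.3, 46.1 and 40.1 RPKM in withdrawal (0.41 ± 0.15), while Drd1a was at 39.5 ± 0.99 and 42.5 ± 0.56 RPKM (0.11 ± 0.023). Rarb, a retinoic acid receptor of the striatum, differed by 0.47 ± 0.057, and Gpr6, an orphan receptor of D2-type neurons, by 0.47 ± 0.1. The phosphodiesterase Pde10a differed by 0.34 ± 0.035 and the adenylyl cyclase Adcy5 by 0.30 ± 0.049. Below 0 with lanes apart were Rgs2 and Arpp19 and the protein kinase A catalytic subunits Prkaca and Prkacb, the latter 2 within 0.1. Set against the saline library, the median of the list was -0.15 for cocaine and 0.01 for withdrawal; these comparisons share libraries with the one above and are not independent of it. Centring within bins of GC content left the median at 0.16 and the 1 call.

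**Figure D3:**
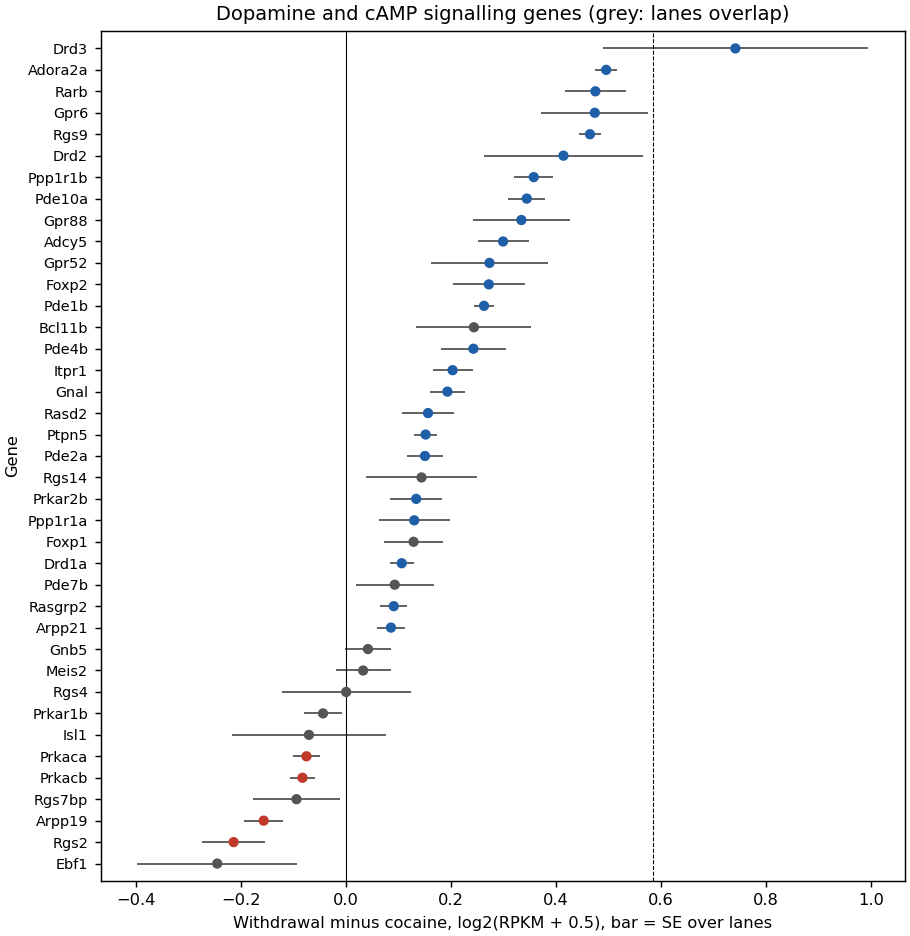
Difference between withdrawal and cocaine (horizontal axis, log2(RPKM + 0.5)) with its standard error over lanes for the 39 measured dopamine and cAMP signalling genes, in order; blue and red mark genes whose lanes do not overlap (24 higher, 4 lower), grey those that do, and the dashed line 1.5 times. Drd3 is the 1 gene past the line and has the widest error bar, and the bars of Adora2a and Rgs9 are narrow.

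Marker lists of striatal divisions gave 2 calls, both higher, where 0.47% of all genes compared were called higher. Stard5, a sterol carrier protein placed on the ventral striatum list, rose from 3.08, 2.7 and 2.96 RPKM to 5.21, 5.31 and 5.26 RPKM (0.76 ± 0.049), and Drd3 was the other call. Over all 20 measured genes of that list, both calls included, the median was 0.00 and 10 were above 0. Dorsolateral striatum genes, of which none of 12 was called, had a median of 0.12, with 8 above 0 and 4 below (lowest -0.24). Lanes were apart for 6 in the higher direction and 1 in the lower, against 8.66% and 9.42% of all genes. The summed level of the list was 433.4 to 452.7 RPKM in cocaine and 522.9 to 544.8 RPKM in withdrawal. Scn4b, a sodium channel beta subunit, was at 45.5 ± 2 and 56.7 ± 1.1 RPKM (0.31 ± 0.039), and Crym, a thyroid hormone-binding protein, at 86.8 ± 1.6 and 109 ± 4.7 RPKM (0.33 ± 0.039). Genes of the dopamine and cAMP list are in part on this list as well, Rgs9 among them. Whether the position of the dissections differed between the pools was not tested.

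Neuropeptide genes showed no common direction. Of 39 measured, 1 was called higher, 18 had a difference above 0 and the median was -0.02. The call was Pomc, the precursor of beta-endorphin and melanocortins, which rose from 1.52 ± 0.7 to 2.94 ± 0.27 RPKM (0.83 ± 0.34), with a saline mean of 3.70 RPKM; without cocaine replicate 2 it was not called (0.50). Penk (0.12 ± 0.044), Pdyn, the dynorphin precursor (0.26 ± 0.048), Tac1, the substance P precursor (0.23 ± 0.071), and Cartpt (0.29 ± 0.069) all differed by less than 25%. Crh, corticotropin-releasing hormone, had 8.92, 6.6 and 7.89 RPKM in cocaine and 5, 5.34 and 5.47 RPKM in withdrawal (-0.52 ± 0.12), without a call. The peptide-amidating enzyme Pam differed by -0.24 ± 0.063, and none of 20 peptide processing genes was called.

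Immediate-early genes, which are switched on within minutes of neuronal activity, were listed together with other activity-regulated genes. None of the 32 measured was called, and the median was 0.01 (-0.03 when centred by GC content, and -0.01 with the authors' composite values). Fos had 3.47, 4.3 and 2.89 RPKM in cocaine and 5.67, 2.46 and 4.25 RPKM in withdrawal (0.14 ± 0.34), and its lanes overlapped. Fosb was at 2.23 ± 0.28 and 1.82 ± 0.21 RPKM (-0.23 ± 0.11), Arc at 9.50 ± 0.96 and 11.3 ± 1.1 RPKM (0.24 ± 0.11) and Egr1 at 25.4 ± 2.7 and 25.3 ± 1.4 RPKM. The largest difference of the list was that of Egr2 (-0.56 ± 0.2), short of the limit.

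Synaptic and channel genes had few calls and list medians near 0. None of 49 glutamate receptor and postsynaptic density genes and none of 25 GABA genes was called, with medians of 0.02 and -0.01. Of 46 synaptic vesicle and active zone genes 1 was called lower (0.548% of all genes compared were). Their median was -0.03, with 15 above 0 and 31 below. Lanes were apart for 8 in the higher direction and 10 in the lower, against 8.66% and 9.42% of all genes. Slc17a6, the vesicular glutamate transporter VGLUT2 of subcortical neurons, fell from 9.86 ± 1.1 to 6.41 ± 0.84 RPKM (-0.59 ± 0.14), just past the limit; without cocaine replicate 3 (-0.50) or withdrawal replicate 1 (-0.48) and under each scaling tried it was not called. Slc17a7, the cortical transporter VGLUT1, had 5.83, 5.01 and 5.76 RPKM in cocaine and 3.29, 4.34 and 4.26 RPKM in withdrawal (-0.44 ± 0.13), against 18.3 RPKM in saline. Ntng1, netrin-G1, an adhesion molecule of axons, fell from 7.34 ± 1.2 to 4.65 ± 0.57 RPKM (-0.60 ± 0.15), a call lost without cocaine replicate 3 (-0.49), without withdrawal replicate 1 (-0.52) and with centring by GC content (-0.57). The other 82 axon guidance and adhesion genes had no call.

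Voltage-gated potassium channel genes had a median of 0.06 with 28 of 41 above 0 and no call. Kcna3 was at 14.2 ± 2.1 RPKM in cocaine and 20.9 ± 2.7 RPKM in withdrawal (0.55 ± 0.16), its lanes apart. Several genes that stood far from saline in both libraries were near each other here: Bmpr2, a bone morphogenetic protein receptor, had 14.6 ± 0.45 and 15.2 ± 0.81 RPKM, Tnr, tenascin-R, 17.1 ± 0.57 and 19.0 ± 0.51 RPKM, and Grin2a, an NMDA receptor subunit, 5.60 ± 0.31 and 6.20 ± 0.57 RPKM. Their saline means were 3.82, 4.81 and 1.4 RPKM. The potassium channel gene Kcnq3, at 4.19 RPKM in saline, was less close. It had 14.2 ± 1.6 and 17.9 ± 2 RPKM (0.33 ± 0.13), its lanes apart and without a call. Oprm1, the mu opioid receptor, was at 3.31 ± 0.59 and 3.86 ± 0.65 RPKM with lanes that overlapped, and at 0.908 RPKM in saline.

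Glial lists held no call, and the endothelial and mural list held 1. Fabp7, a fatty acid-binding protein of astrocytes and radial glia, rose from 16.2, 15.5 and 14.2 RPKM to 27.1, 22.5 and 23.1 RPKM (0.64 ± 0.097), with 26.9 RPKM in saline. Without withdrawal replicate 1 the difference was 0.56, and Fabp7 is not on the astrocyte list. Astrocyte genes as a list had no call among 28 and a median of -0.07, myelin genes no call among 30 and a median of -0.06, and microglial genes no call among 26 and a median of -0.05. Of the astrocyte genes 20 lay below 0 and 8 above. Their lanes were apart for 9 in the lower direction and 1 in the higher, against 9.42% and 8.66% of all genes. A few vascular genes rose: Sox18, a transcription factor of endothelium, from 3.03 ± 1 to 5.06 ± 0.26 RPKM (0.70 ± 0.25; 0.47 without cocaine replicate 2), and Esam, an endothelial adhesion molecule, from 4.84 ± 0.044 to 7.81 ± 1.8 RPKM (0.62 ± 0.17; 0.45 without withdrawal replicate 2). Bgn, the matrix proteoglycan biglycan, rose from 5.27 ± 1.1 to 8.52 ± 1.5 RPKM (0.65 ± 0.21; 0.52 without cocaine replicate 2 and 0.54 without withdrawal replicate 3). The endothelial and mural list, which holds Esam but neither Sox18 nor Bgn, had 1 call among 33 genes and a median of 0.04, and its summed level was 497.3 to 502.6 RPKM in cocaine and 517.6 to 520.7 RPKM in withdrawal.

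Other genes among the 12 largest rises had varied roles. Zfp809, a zinc finger protein that recruits silencing of retroviral elements, rose from 3.28, 4.73 and 3.86 RPKM to 5.38, 8.3 and 7.7 RPKM (0.77 ± 0.22). Aldh3b1, an aldehyde dehydrogenase, rose from 2.83 ± 1.2 to 4.91 ± 0.31 RPKM (0.76 ± 0.29), and its saline level was 4.78 RPKM. Mrpl34, a protein of the mitochondrial ribosome, rose from 12.5 ± 3.9 to 19.1 ± 1.4 RPKM (0.63 ± 0.27). The value for Mrpl34 rested on cocaine replicate 2, at 8.43 RPKM, and was 0.38 without it and 0.57 with composite values or GC centring. Mrpl23 was the other call (0.76 ± 0.27) of 76 mitochondrial ribosomal genes, whose median was 0.03. Ltk, a receptor tyrosine kinase, rose from 5.71 ± 0.66 to 9.07 ± 1.1 RPKM (0.62 ± 0.13) and was not called without cocaine replicate 1 (0.58), cocaine replicate 3 (0.58) or withdrawal replicate 1 (0.53), with a pseudocount of 1 (0.58) or with GC centring (0.57).

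**Figure D4:**
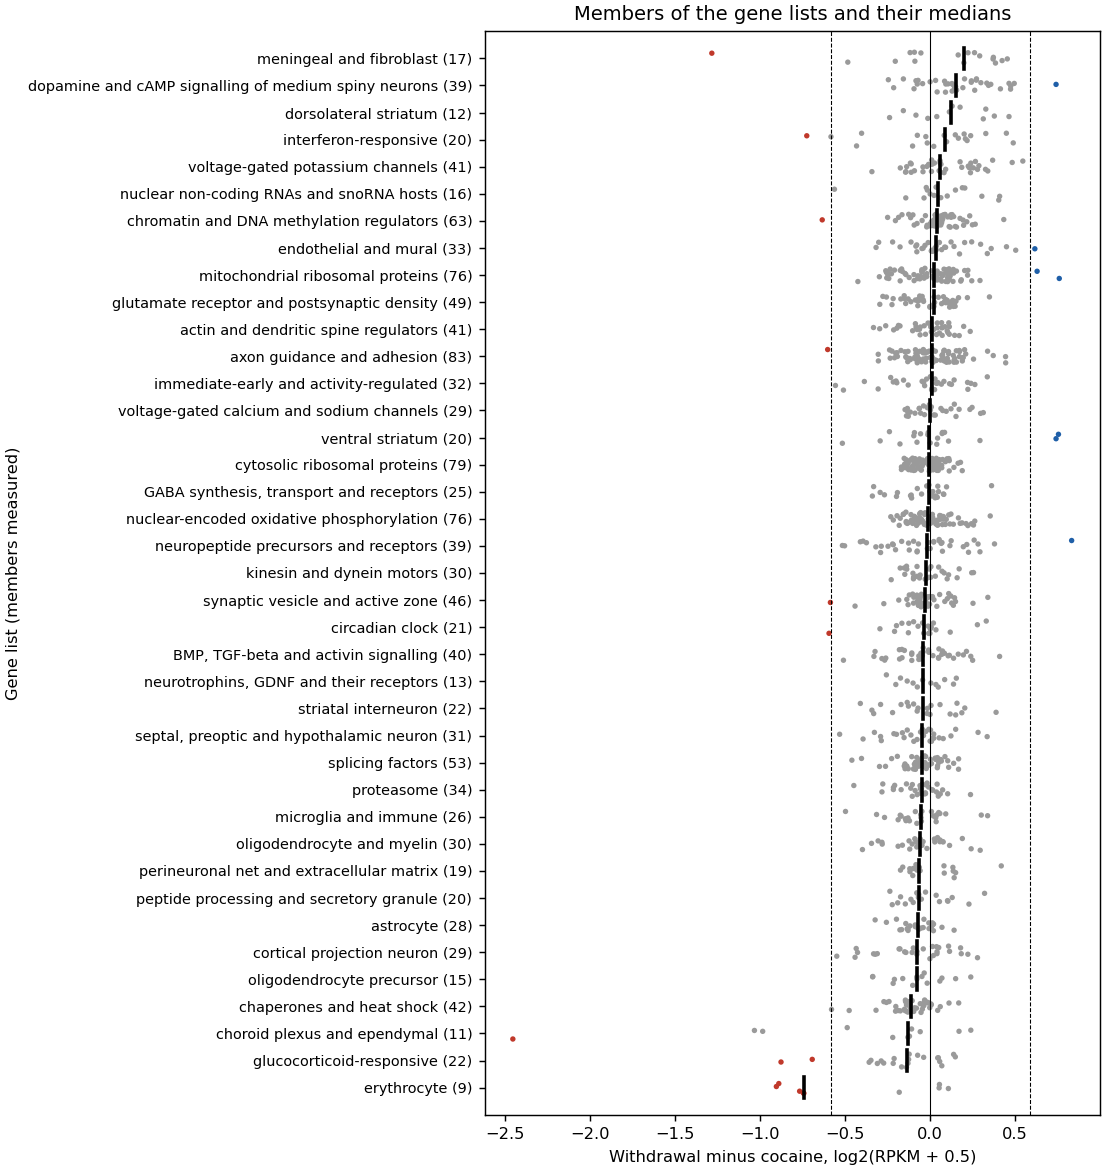
Difference between withdrawal and cocaine (horizontal axis, log2(RPKM + 0.5)) for each measured member of 39 gene lists, 1 point per gene, with the list's median as a black bar, calls in blue (higher) and red (lower), and dashed lines at 1.5 times. Apart from the erythrocyte list at -0.74, all medians lie between -0.13 and 0.20; points are spread vertically at random for legibility.

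Small RNA genes supplied many calls on few reads. Of 120 microRNA genes 5 were higher and 3 lower (6.67%), and of 69 small nucleolar RNA genes 5 were higher and 2 lower (10.1%), while of 12688 protein-coding genes 0.733% were called. Gene models under 200 bp, by lengths inferred from the values, gave 15 calls among 206, Hist1h4d among them. Inserts were about 200 bp and RNA was poly(A)-selected, so reads over these models need not come from the mature small RNA. The called microRNA and small nucleolar RNA genes had between 0 and 47.3 reads in the cocaine library and between 0 and 20 in the withdrawal library.

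The Mir24-1 and Mir3074-1 models had the same pattern. Mir24-1 was at 0.20, 2 and 0.133 RPKM in the cocaine lanes and 4.3, 8.51 and 6.34 RPKM in the withdrawal lanes, on about 1.19 and 8.59 reads. Mir3074-1 was at 0.681, 1.77 and 0.747 RPKM in cocaine and 4.41, 7.67 and 5.95 RPKM in withdrawal. Their hairpins are shown because they are the same DNA read in opposite directions: RefSeq on GRCm38.p6 places the first at chr13:63301208-63301275 on the plus strand and the second at chr13:63301199-63301283 on the minus strand. Capitals mark the 68 bases of each that are the reverse complement of the other, which are bases 9 to 76 of the second.
Mir24-1: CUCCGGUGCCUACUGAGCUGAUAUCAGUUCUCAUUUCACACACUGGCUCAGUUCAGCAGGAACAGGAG
Mir3074-1: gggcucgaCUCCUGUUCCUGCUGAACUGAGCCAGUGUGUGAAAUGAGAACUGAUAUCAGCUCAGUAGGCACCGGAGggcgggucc
Unless counting kept the strand, which the sources used here do not give, reads of one and the other cannot be told apart, and the pair may be 1 observation.

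The other 6 called microRNA models were Mir431, Mir369, Mir3060, Mir1249, Mir762 and Mir1902. Mir431 had 2.99 to 4.42 RPKM in cocaine and 6.29 to 7.39 RPKM in withdrawal, and Mir369 had 0.978 to 7.29 and 7.79 to 8.7 RPKM. The difference of Mir369 was 1.28 ± 0.7, and 0.65 without cocaine replicate 2. Mir1249 had 15.1 to 25.8 RPKM in cocaine and 2.88 to 12.7 RPKM in withdrawal (-1.38 ± 0.63; -0.81 without withdrawal replicate 3). Mir3060 was higher by 2.24, on about 1.49 and 7.3 reads, and Mir762 (-0.86) and Mir1902 (-0.63) were lower. The call of Mir1902 ended without cocaine replicate 1 (-0.56), cocaine replicate 3 (-0.57) or withdrawal replicate 3 (-0.43) and with GC centring (-0.51). MicroRNA models are outside the rule for named genes, and those here were chosen after their values were seen. One mature form from RefSeq is shown for each of 4 of them, with the seed (bases 2 to 8), the part that pairs with targets, in capitals.
mmu-miR-24-3p: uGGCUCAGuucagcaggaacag
mmu-miR-431-5p: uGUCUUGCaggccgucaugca
mmu-miR-369-3p: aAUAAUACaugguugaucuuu
mmu-miR-1249-3p: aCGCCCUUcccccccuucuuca
Scarna6, a guide RNA of Cajal bodies, had 0, 2.05 and 1.69 RPKM in cocaine and 2.72, 7.96 and 3.62 RPKM in withdrawal, on 8 and 25 reads; its difference of 1.78 ± 0.86 became 1.03 without cocaine replicate 1 and 2.59 with a pseudocount of 0.1. Rn4.5s, a small RNA with many genomic copies whose level is uncertain, rose from 58.7, 38.5 and 40.6 RPKM to 109, 72.3 and 67.9 RPKM (0.84 ± 0.29).

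By symbol family (157 families of 10 or more measured genes, named by the letters before the first digit), the lowest median was that of Pcdha, the alpha-protocadherins that give neurons a surface identity, at -0.35 with all 12 members below 0 and no call. These genes share their 3′ exons, so their values are not independent and are uncertain. Fgf (-0.16), Arl (-0.11) and Hspa (-0.09) followed. The highest were Snora (0.60 over 24 genes, 1 higher and 1 lower), Mir (0.20), Col (0.18, with 13 of 18 above 0 and no call), and Ptpn (0.10). The Col symbols are collagens except Col4a3bp, a ceramide transfer protein.

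The differences rose with GC content and showed no trend in direction with gene length, although calls were concentrated in short genes. Across genes, which are not independent replicates, the Spearman correlation of the difference with the GC content of the longest transcript was 0.294, and with gene model length 0.0125. The median difference rose from -0.11 in the tenth of genes with least GC (28.1 to 41.6%) to 0.06 in that with most (58.2 to 82.9%), while the medians of 10 length bins stayed between -0.02 and 0.00. Genes called higher had a median GC content of 53.5%, those called lower 47.3%, and all compared 50.1%. Among the 9 pairs of 1 withdrawal and 1 cocaine lane the correlation was 0.0499 to 0.309, and between lanes of 1 library it reached 0.179 in size. Centring within bins of GC content kept 106 of the 143 calls (135 of them had a GC value), and turned the median of splicing factors, which remove introns and had no call among 53, from -0.05 to 0.03. The part of base composition in any single difference was not tested beyond that centring.

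**Figure D5:**
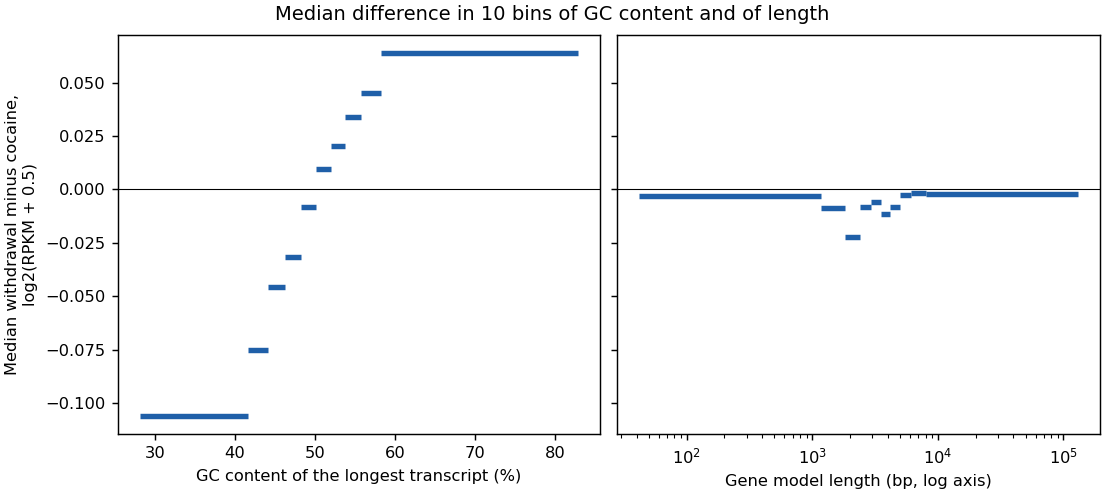
Median difference between withdrawal and cocaine (vertical axis, log2(RPKM + 0.5)) in 10 bins of genes by GC content (left, %) and by gene model length (right, bp, log axis), each bar spanning its bin. Medians climb with GC from -0.11 to 0.06 and stay between -0.02 and 0.00 over length.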

How the data were processed

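The samples are 3 pooled poly(A) libraries of mouse nucleus accumbens (saline, cocaine, withdrawal), each run in 3 lanes of 37 cycles per end. The deposited values are RPKM, made by the authors per lane and as a composite per library, with read totals given per the file headers. Bowtie 0.12.7 and mm9 are named per the submitters' processing notes; the counter and annotation are not given in the sources used here. Values were whole multiples of 1/37 of a read (relative tolerance 2e-13). The smallest length that fitted every lane was taken as the gene model length and gave the read numbers. For 115 genes it was multiplied by 37, where it was under 37 bp or a reference transcript was nearer that multiple. The true length can be a larger multiple, so inferred lengths and read numbers can be too low. Reads are not whole, so no count test was run.

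Lane values entered as log2(RPKM + 0.5), a scale that understates the change of low genes, and were averaged per library. The filter was an average of 1 RPKM over the 9 lanes; a call needed 1.5 times and no lane overlap. With 1 library per group no p-value was computed. Named genes were the 12 largest called changes each way at 3 RPKM or more over the 6 lanes, leaving out models under 200 bp and, by symbol, predicted genes, clone names and small RNAs such as Mir and Snor; Scarna6 and Rn4.5s are small RNAs with other symbols and were kept. The rule also took up to 4 members per list with the largest difference and a fixed set of striatal genes. Ddit4, Col4a1, Pde10a, Adcy5, Rgs2, Arpp19, Prkaca, Prkacb, Folr1, Kl and Kcne2 are list members outside this rule, chosen after their values were seen, as were the microRNA models and the genes of the closing observations. The members and the 39 gene lists were chosen with earlier results of these data known. The motifs CCAAT and ATATAA were added after values were seen. GC content came from Gencode transcripts and current symbols from RefSeq (19852 of 21423 genes matched). The scripts were tested on simulated data (Python 3.11.15, pandas 2.3.3, numpy 2.4.6, scipy 1.17.1). Alternatives were the pseudocount, filter, size limit, lane condition, composite values, scaling, centring by length or GC content, a replicate block, short models and leaving out each lane.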

Additional observations from a re-analysis of the deposited data

How the results depend on the processing

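The main counts, 66 genes higher and 77 lower, moved most with the size limit and the filter. They were 313 and 340 with a limit of 25%, 17 and 10 at 2 times, 15 and 28 with a filter of 5 RPKM, and 138 and 158 with none. Without the condition on lanes they were 155 and 159, and with the authors' composite values 141 and 141. Leaving out 1 lane, which makes non-overlap easier to reach, gave 89 to 135 higher and 120 to 154 lower, and kept 114 to 128 of the 143 calls. With a pseudocount of 1, 102 of the calls were kept. No called gene changed sign under any of these settings, which is little of a check. A call already needs lanes apart, so its sign cannot turn when the pseudocount, filter, limits or number of lanes change. The relation of the difference to gene length, as a Spearman correlation, was -0.00707 to 0.0427 without 1 lane. The relation of the difference to GC content was 0.22 to 0.323; it and its alternatives were added after seeing the data. With lanes paired by number as a replicate block the counts were 98 and 105. Lane numbers share only a number: deviations of same-numbered lanes correlated at 0.0764, 0.0201 and -0.000121. Depth limits the low genes: 1 read in 2 kb is worth 0.0206 RPKM in the whole cocaine library and 0.0257 RPKM in that of withdrawal.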

Other observations

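Some called genes outside the lists and the naming rule, chosen after their values were seen, are given here as values. Rasd1, a small GTPase that dexamethasone induces, had 3.21, 3.04 and 3.82 RPKM in the cocaine lanes and 1.57, 1.78 and 1.96 RPKM in the withdrawal lanes (-0.76 ± 0.11). Nov, a secreted matricellular protein now called Ccn3, fell from 2.13 to 0.941 RPKM (-0.88 ± 0.17), and Fzd1, a Wnt receptor, from 4.57 to 2.70 RPKM (-0.70 ± 0.24; -0.52 without withdrawal replicate 1, under the limit). Scgn, the calcium sensor secretagogin, fell from 1.54 to 0.638 RPKM (-0.80 ± 0.26), a call that ended without cocaine replicate 1 (-0.57). Lmo2, a transcriptional adaptor, rose from 12.2, 12.8 and 11.9 RPKM to 19.8, 18.2 and 19.1 RPKM (0.61 ± 0.044), and Gpr12, an orphan receptor, from 8.44, 8.07 and 8.4 RPKM to 13.5, 12.1 and 13.4 RPKM (0.61 ± 0.054). Both were under the limit without withdrawal replicate 1, each at 0.58, and Lmo2 also with GC centring (0.58).

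Of 33 measured genes with Hist symbols, histones whose transcripts mostly lack a poly(A) tail, 3 were called, all higher. Among all genes compared 0.47% were called higher. The 3 lay under 3 RPKM, where 2.77% of genes were called in either direction. Of the 33 genes 18 lay below 0, and the family's median was -0.03. Hist1h2ad rose from 1.32, 1.43 and 1.17 RPKM to 2.84, 2.9 and 5.77 RPKM (1.20 ± 0.3), on 18 and 44 reads, with 4.60 RPKM in saline. Hist1h2ag rose from 1.02 to 2.14 RPKM on 6 and 10 reads, and was at 0.52 without withdrawal replicate 1. Hist1h4d was listed at 0 in all cocaine lanes and at 2.56, 1.91 and 3.74 RPKM in withdrawal, on about 7.62 reads. The inferred lengths of Hist1h2ag and Hist1h4d, 245 and 141 bp, are the smallest that fitted, so their read numbers can be too low. Members of these families are near-identical, so their levels are uncertain.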
